A study of Rattus norvegicus with 12 samples.

Results

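Semaphorins and ephrins are guidance cues, and this account covers their genes and those of their receptors in the cerebral cortex of rats after embolic stroke. The genes were taken by symbol, as every row of the count table for a class 3 to 7 semaphorin, an A, B, C or D plexin, a neuropilin, an ephrin-A or ephrin-B ligand, or an EphA or EphB receptor. This gave 53 of 17268 genes, of which 51 passed the low-count filter in each comparison. Efna4 and Epha1, an ephrin-A ligand and an EphA receptor, passed in none, and their CPM (counts per 1000000 library counts, scaled by TMM factors) were at most 1.25 in any library. The study asked whether acupuncture changes the brain after thrombolysis that is given late. It used adult male Sprague Dawley rats in 4 groups, with 3 libraries per group. Sham rats had the carotid surgery without a clot. Model rats had a blood clot injected into the middle cerebral artery and no treatment. In the rt-PA group the same stroke was followed by recombinant tissue plasminogen activator, the clot-dissolving drug, at 6 h. In the rt-PA+Acu group, acupuncture at the Shuigou (GV26) and Neiguan (PC6) points at 2 h preceded rt-PA at 6 h. There was no group with acupuncture alone, so acupuncture was compared within rt-PA-treated rats.

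Semaphorins are secreted or membrane-bound ligands that act mainly through plexins, and class 3 semaphorins mostly need a neuropilin as a co-receptor. Ephrins are cell-surface ligands of the Eph receptor tyrosine kinases, and signals can run into both the ligand-bearing and the receptor-bearing cell. Both systems steer axons, shape synapses and blood vessels, and in the adult brain are made by neurons, glia and endothelial cells.

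Libraries held between 11678450 and 13616935 counts, of which the guidance genes made up 0.298% to 0.339%. With 3 numbered samples per group, p-values measure only the spread between these samples. The libraries come from bulk tissue, in which fewer cells of a type and less RNA per cell cannot be told apart. Model replicate 3 stood apart at 10 genes, where it lay inside the Sham range and the other 8 stroke libraries lay outside it by more than 1.5-fold on the same side. The same measure gave 43 genes for rt-PA+Acu replicate 1, 20 for replicate 2 and 2 for replicate 3, and 0 for the remaining stroke libraries. None of these genes was a guidance gene. On the first principal component of the guidance genes, which held 60.6% of their variance, Sham lay between -4.06 and -3.74, Model between 2.08 and 4.10, rt-PA between 2.73 and 4.27, and rt-PA+Acu between -3.07 and -1.58. On the first component of the 500 genes with the largest variance (80.2% of it), rt-PA+Acu replicates 1 to 3 lay at -35.5, -33.5 and -11.4. Sham lay between -44.9 and -43.8 there, and Model replicates 1 to 3 at 38.9, 36.8 and 27.6. Model replicate 3 and rt-PA+Acu replicate 3 were the libraries of their groups nearest to the middle on both components, so counts are also given without them.

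Stroke lowered more guidance genes than it raised. A gene was called a DEG where its adjusted p was below 0.05 and its log2 fold change passed 1 in either direction. In Model against Sham, 14 of the 51 tested guidance genes (27.5%) were lower, beside 12% of all 12884 genes tested, and 4 (7.84%) were higher, beside 9.43%. The genes that fell were led by the plexins Plxnb1 and Plxna3 and the Eph receptors Epha3 and Ephb3, and those that rose were Sema3c, Plxna4, Epha2 and Nrp2. With an adjusted p under 0.05 at any fold, the count was 28 of 51 (54.9%), beside 54% of all genes. The guidance genes did not stand out by this total. By direction, 19 of them were lower and 9 higher, beside 3432 lower and 3519 higher of all 12884 genes. The Model and Sham libraries did not overlap at 29 of 51 (56.9%), beside 63.7%. The median log2 fold change was -0.35 over the guidance genes and 0.014 over all genes tested. Without Model replicate 3 there were 19 guidance DEGs in place of 18, Epha2 was no longer among them (0.89, adjusted p = 0.0208), and Sema3f and Sema3g were added.

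With acupuncture before rt-PA, more guidance genes were higher than lower against rt-PA alone, though this balance was lost in some settings given below. In rt-PA+Acu against rt-PA, 8 of 51 guidance genes (15.7%) were higher, beside 7.17% of all 12999 genes tested, and 4 (7.84%) were lower, beside 8.16%. The higher genes were Epha8, Plxnb1, Epha3, Plxna3, Ephb3, Epha6, Sema4g and Sema6b, and the lower ones were Epha2, Sema3g, Sema3c and Ephb4. At any fold, 19 of 51 (37.3%) had an adjusted p under 0.05, beside 34.8% of all genes, and 25 (49%) had groups that did not overlap, beside 51.1%. The count of 12 DEGs was 13 without rt-PA+Acu replicate 3. It was 7 without rt-PA+Acu replicate 2 (4 higher and 3 lower) and 8 without rt-PA replicate 1 (4 higher and 4 lower). With library size alone in place of TMM it was 10, of which 5 were higher and 5 lower.

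**Figure D1:**
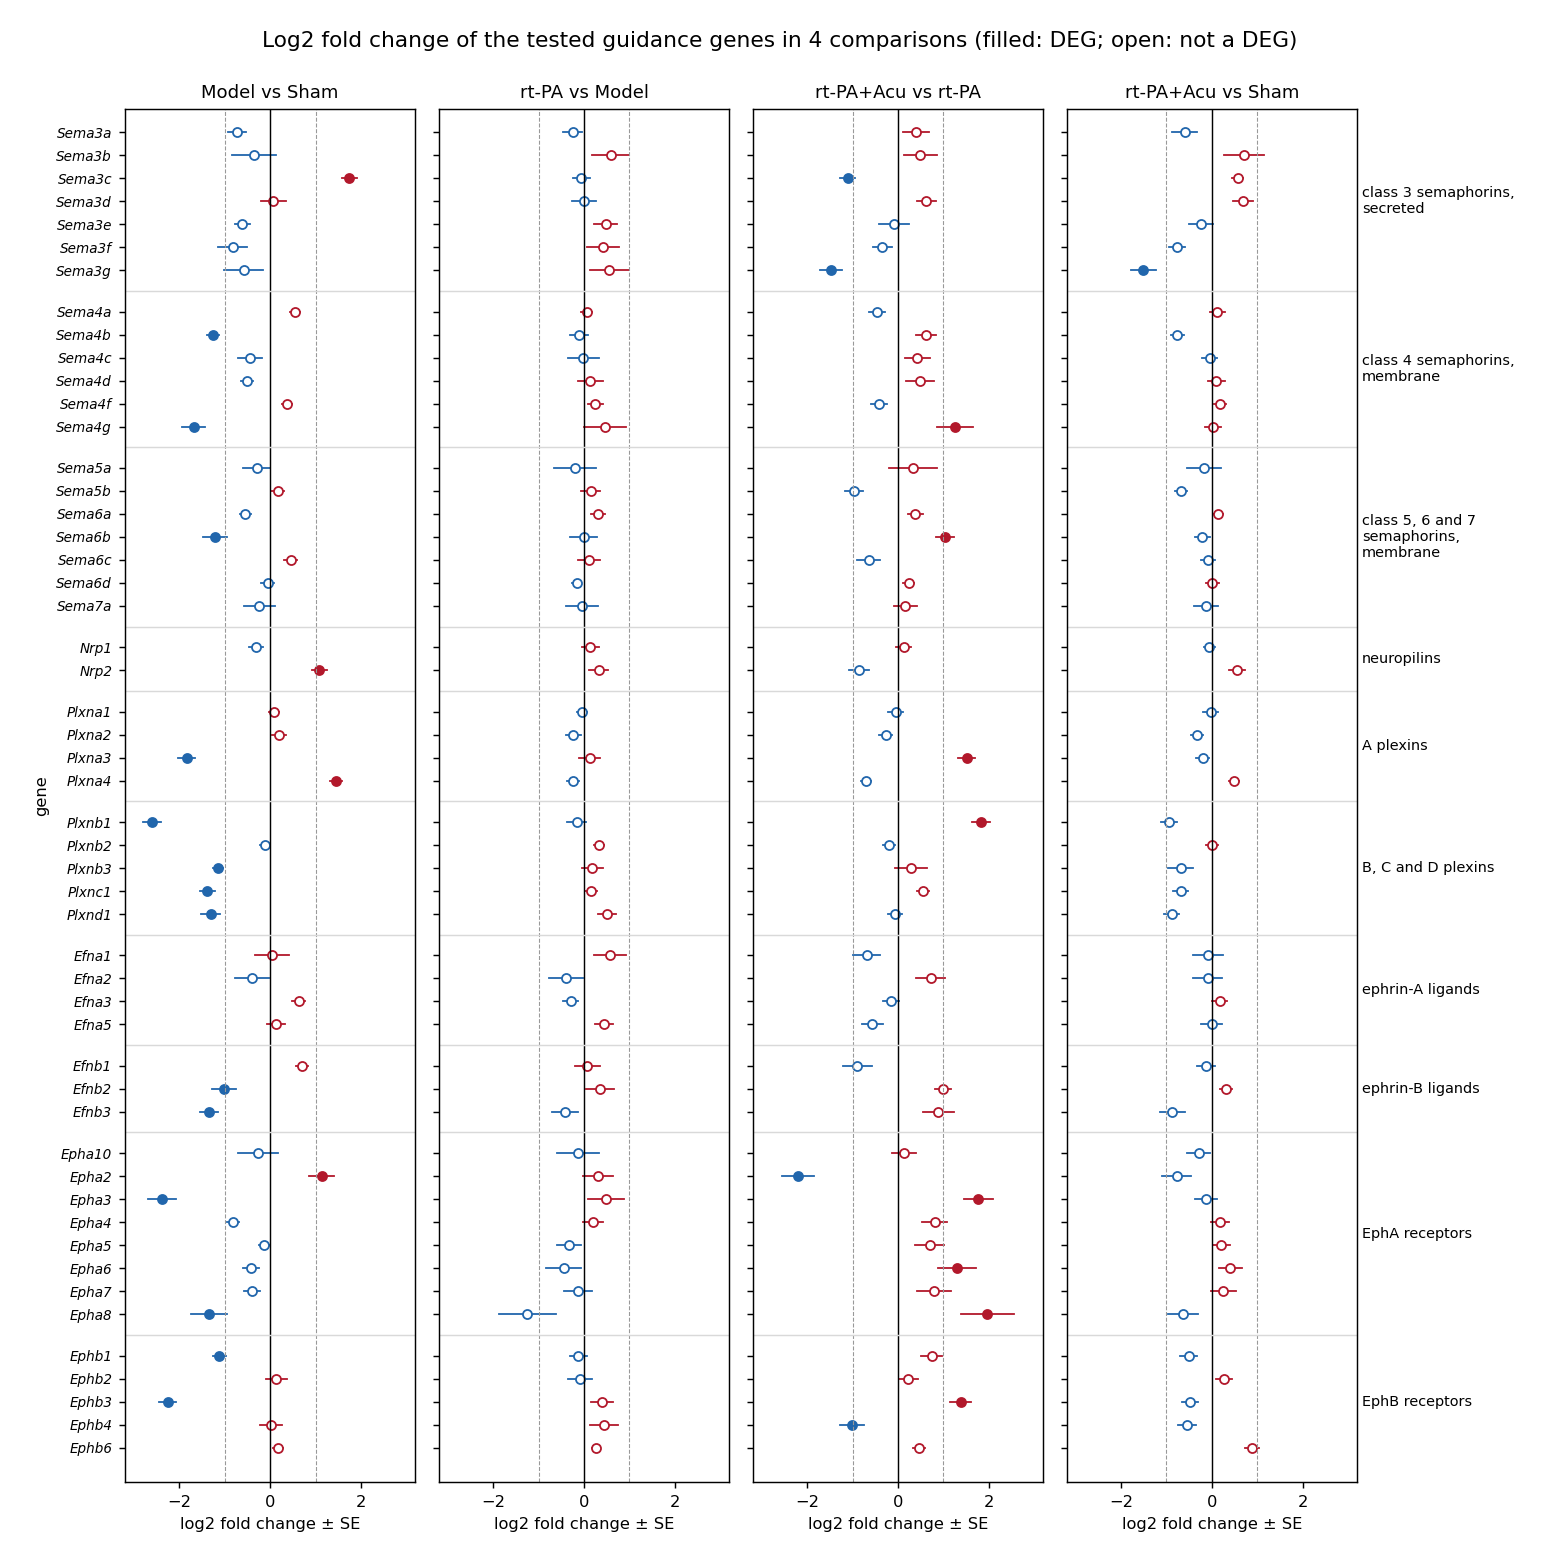
Log2 fold change (horizontal axis, bars are SE) of the 51 tested guidance genes in 4 comparisons, ordered by role; filled points are DEGs and dashed lines mark a log2 fold change of 1 in either direction. Filled points lie mostly on the left in Model against Sham (14 of 18) and mostly on the right in rt-PA+Acu against rt-PA (8 of 12), and rt-PA against Model has none.

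Among the secreted class 3 semaphorins, Sema3c had the largest rise of any guidance gene in Model against Sham. It held 64.3, 65.0 and 66.4 CPM (Sham), 239, 249.7 and 162 (Model), 177, 246 and 199 (rt-PA), and 81.7, 94.3 and 113 (rt-PA+Acu). All Model and rt-PA libraries lay above all Sham and rt-PA+Acu libraries, and the Sham libraries lay close to each other. Sema3c was 3.35-fold higher in Model than in Sham (log2 fold change 1.74 ± 0.16 (SE), adjusted p = 8.35e-05) and fell by 1.11 on the log2 scale in rt-PA+Acu against rt-PA (adjusted p = 0.00397). The latter change came just under the fold threshold without rt-PA replicate 2 (-0.97) or without rt-PA+Acu replicate 1 (-0.998), with adjusted p of 0.00947 and 0.015. It was still 1.48-fold higher in rt-PA+Acu than in Sham at an adjusted p of 0.0476, under the fold threshold.

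Sema3g, a semaphorin known from arterial endothelium, followed another pattern. It held 21.5, 33.5 and 20.6 CPM (Sham), 10.2, 9.30 and 30.6 (Model), 28.6, 21.9 and 22.9 (rt-PA), and 6.06, 8.80 and 11.5 (rt-PA+Acu). The rt-PA+Acu libraries were below all Sham and rt-PA libraries, while Model replicate 3 lay inside the Sham range and its 2 fellow libraries below it. Sema3g fell in rt-PA+Acu against rt-PA (log2 fold change -1.47 ± 0.25 (SE), adjusted p = 0.00545) and was the 1 guidance DEG of rt-PA+Acu against Sham (log2 fold change -1.51 ± 0.28 (SE), adjusted p = 0.0254). The call against Sham was lost when any 1 Sham library or rt-PA+Acu replicate 2 was left out, at adjusted p of 0.0542 to 0.104, and in a fit over all 12 libraries (adjusted p = 0.0567).

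Sema3a, which repels growth cones through Nrp1 and A plexins, held 67.7, 47.2 and 58.9 CPM (Sham), 28.7, 44.9 and 30.6 (Model), 27.5, 35.1 and 24.6 (rt-PA), and 45.7, 47.7 and 21.8 (rt-PA+Acu). All stroke libraries without acupuncture lay below the Sham range, and rt-PA+Acu spread from the lowest value of all to just above the Sham minimum. It passed the fold threshold in rt-PA against Sham (log2 fold change -1.01 ± 0.17 (SE), adjusted p = 0.00179) but not in Model against Sham (-0.73, adjusted p = 0.0133). The rt-PA against Sham fold was under the threshold without Sham replicate 1, rt-PA replicate 1 or rt-PA replicate 3 (-0.88 to -0.96), with library size alone (-0.86) and in the fit over all 12 libraries (-0.99). The other class 3 genes, Sema3b, Sema3d, Sema3e and Sema3f, were DEGs in no comparison. Sema3f, the main ligand of Nrp2, was 1.70-fold lower in rt-PA+Acu than in Sham (adjusted p = 0.0451), and Sema3e, the ligand of Plxnd1, was 1.53-fold lower in Model than in Sham (adjusted p = 0.0129). Summed over the 7 class 3 genes, the level was 216, 213 and 214 CPM (Sham), 322, 359.7 and 274 (Model), 288, 378 and 299.9 (rt-PA), and 224, 216 and 201 (rt-PA+Acu). The Model and rt-PA sums were above every Sham and rt-PA+Acu sum, which rests on Sema3c. Without it the other 6 genes summed to 152, 148 and 148 CPM (Sham), 83.3, 110.0 and 112 (Model), 111, 132 and 101 (rt-PA), and 142, 121 and 88.5 (rt-PA+Acu), and all Model and rt-PA sums were below all Sham sums.

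Among the membrane-bound semaphorins of classes 4 to 7, 3 of 13 were lower in Model against Sham and 0 were higher, beside 12% and 9.43% of all genes tested. Sema4g held 22.7, 25.3 and 22.6 CPM (Sham), 5.04, 6.51 and 10.3 (Model), 5.27, 16.9 and 7.95 (rt-PA), and 18.4, 27.7 and 25.9 (rt-PA+Acu). Model lay below Sham in all libraries, rt-PA replicate 2 was above all Model libraries, and rt-PA+Acu lay around the Sham values. Sema4g was 3.21-fold lower in Model than in Sham (log2 fold change -1.68 ± 0.25 (SE), adjusted p = 0.000722) and 2.39-fold higher in rt-PA+Acu than under rt-PA alone (log2 fold change 1.26 ± 0.40 (SE), adjusted p = 0.0446). The rise with acupuncture was lost when rt-PA replicate 1 or 3 or any 1 rt-PA+Acu library was left out, at adjusted p of 0.0598 to 0.131, and with library size alone (adjusted p = 0.0518).

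Sema6b, a transmembrane ligand of A plexins, held 87.7, 91.1 and 95.8 CPM (Sham), 26.6, 31.5 and 59.5 (Model), 32.2, 46.3 and 38.3 (rt-PA), and 80.7, 96.7 and 60.8 (rt-PA+Acu). Model and rt-PA lay below every Sham and rt-PA+Acu library, with Model replicate 3 just under rt-PA+Acu replicate 3. It fell in Model against Sham (log2 fold change -1.22 ± 0.26 (SE), adjusted p = 0.00482) and rose in rt-PA+Acu against rt-PA (log2 fold change 1.03 ± 0.20 (SE), adjusted p = 0.00841). The rise was under the fold threshold without rt-PA replicate 1 (0.90) or rt-PA+Acu replicate 2 (0.86) and with library size alone (0.92), at adjusted p of 0.00771 to 0.0323.

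Sema4b held 34.4, 42.6 and 36.9 CPM (Sham), 14.7, 15.2 and 17.3 (Model), 18.5, 11.2 and 13.8 (rt-PA), and 22.6, 25.8 and 18.9 (rt-PA+Acu). All stroke libraries were below all Sham libraries, and those with acupuncture were above the rest. Sema4b fell in Model against Sham (log2 fold change -1.26 ± 0.13 (SE), adjusted p = 0.00014), and in rt-PA+Acu it was still 1.69-fold lower than in Sham (adjusted p = 0.0286). The other 10 membrane-bound genes were DEGs in no comparison. Of these, Sema4a, Sema4f and Sema6c were higher in Model than in Sham at an adjusted p under 0.05 (0.54, 0.37 and 0.45), and Sema4d and Sema6a were lower (-0.50 and -0.54). Sema5b was lower in rt-PA+Acu than under rt-PA alone (-0.98, adjusted p = 0.00947) and than in Sham (-0.68, adjusted p = 0.035). Against rt-PA alone, it became a DEG with library size alone and without rt-PA replicate 1 or rt-PA+Acu replicate 1.

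The receptors of the semaphorins moved in both directions. Plxnb1, the receptor of Sema4d, held 264, 267 and 247 CPM (Sham), 34.1, 35.5 and 57.9 (Model), 39.5, 33.5 and 40.7 (rt-PA), and 173, 128 and 103 (rt-PA+Acu). Model and rt-PA were far below Sham with no overlap, and rt-PA+Acu lay between them in all 3 libraries. Plxnb1 was 6.06-fold lower in Model than in Sham (log2 fold change -2.60 ± 0.19 (SE), adjusted p = 3.44e-05), the largest fall of any guidance gene there. It was 3.54-fold higher in rt-PA+Acu than under rt-PA alone (log2 fold change 1.83 ± 0.20 (SE), adjusted p = 0.00139) and 1.93-fold lower than in Sham (adjusted p = 0.0244), which passed the fold threshold without rt-PA+Acu replicate 1 (-1.16, adjusted p = 0.00819).

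Plxna4, a signalling partner of Nrp1 and a receptor of class 6 semaphorins, moved the other way. It held 175, 175 and 181 CPM (Sham), 564, 483 and 391 (Model), 393, 400.0 and 418 (rt-PA), and 223, 258 and 263 (rt-PA+Acu). The order was Sham, rt-PA+Acu, then Model and rt-PA together, and only Model and rt-PA overlapped. Plxna4 was 2.73-fold higher in Model than in Sham (log2 fold change 1.45 ± 0.13 (SE), adjusted p = 8.18e-05), 1.63-fold lower in rt-PA+Acu than under rt-PA alone (adjusted p = 0.00437) and 1.40-fold higher in rt-PA+Acu than in Sham (adjusted p = 0.0378), the latter pair under the fold threshold. Its relative Plxna3, which with Nrp2 transduces Sema3f, held 69.4, 58.9 and 52.8 CPM (Sham), 12.4, 17.8 and 20.2 (Model), 20.2, 20.7 and 13.99 (rt-PA), and 56.9, 57.2 and 43.2 (rt-PA+Acu). Sham and rt-PA+Acu overlapped, and both lay above Model and rt-PA. Plxna3 fell in Model against Sham (log2 fold change -1.84 ± 0.19 (SE), adjusted p = 0.000129) and rose in rt-PA+Acu against rt-PA (log2 fold change 1.52 ± 0.19 (SE), adjusted p = 0.0021). The other A plexins, Plxna1 and Plxna2, had no adjusted p under 0.05, and their largest log2 fold change was -0.33 (Plxna2, rt-PA+Acu against Sham).

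Plxnc1, the receptor of Sema7a, held 91.7, 76.8 and 59.9 CPM (Sham), 26.7, 31.7 and 28.8 (Model), 31.0, 36.7 and 29.0 (rt-PA), and 46.1, 42.6 and 52.8 (rt-PA+Acu). Plxnd1, which binds Sema3e and acts in vessel growth, held 84.1, 55.0 and 55.9 CPM (Sham), 20.1, 26.9 and 31.4 (Model), 42.8, 38.7 and 29.5 (rt-PA), and 34.7, 37.0 and 34.0 (rt-PA+Acu). Plxnb3, a receptor of Sema5a known from oligodendrocytes, held 65.0, 69.7 and 59.0 CPM (Sham), 26.6, 28.2 and 32.2 (Model), 24.2, 46.0 and 28.3 (rt-PA), and 59.7, 35.2 and 25.4 (rt-PA+Acu). All 3 were lower in every Model library than in any Sham library, and they differed in rt-PA+Acu, where Plxnc1 lay above rt-PA, Plxnd1 lay inside the rt-PA range, and Plxnb3 spread over it and into the Sham range. In Model against Sham the log2 fold changes were -1.38 ± 0.16, -1.31 ± 0.21 and -1.14 ± 0.11 (SE; adjusted p = 0.000229, 0.00117 and 0.000107). In rt-PA+Acu against rt-PA, Plxnc1 was 1.46-fold higher (adjusted p = 0.0207), and Plxnd1 and Plxnb3 had adjusted p of 0.731 and 0.549. Plxnd1 was 1.85-fold lower in rt-PA+Acu than in Sham (adjusted p = 0.0286). Plxnb2 was a DEG in no comparison.

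Nrp2, the neuropilin that favours Sema3f and VEGF-C, held 19.2, 22.7 and 15.3 CPM (Sham), 45.7, 41.0 and 34.0 (Model), 67.6, 39.2 and 43.7 (rt-PA), and 28.1, 24.2 and 31.2 (rt-PA+Acu). Sham was lowest, rt-PA+Acu was next, and Model and rt-PA overlapped above both. Nrp2 rose in Model against Sham (log2 fold change 1.09 ± 0.17 (SE), adjusted p = 0.00115), though under the fold threshold without Sham replicate 3 (0.94) or Model replicate 1 (0.98), at adjusted p of 0.00496 and 0.00356. In rt-PA+Acu against rt-PA it was 1.80-fold lower (adjusted p = 0.0222). Nrp1, the neuropilin of Sema3a, was a DEG in no comparison, with an adjusted p of 0.135 in Model against Sham.

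**Figure D2:**
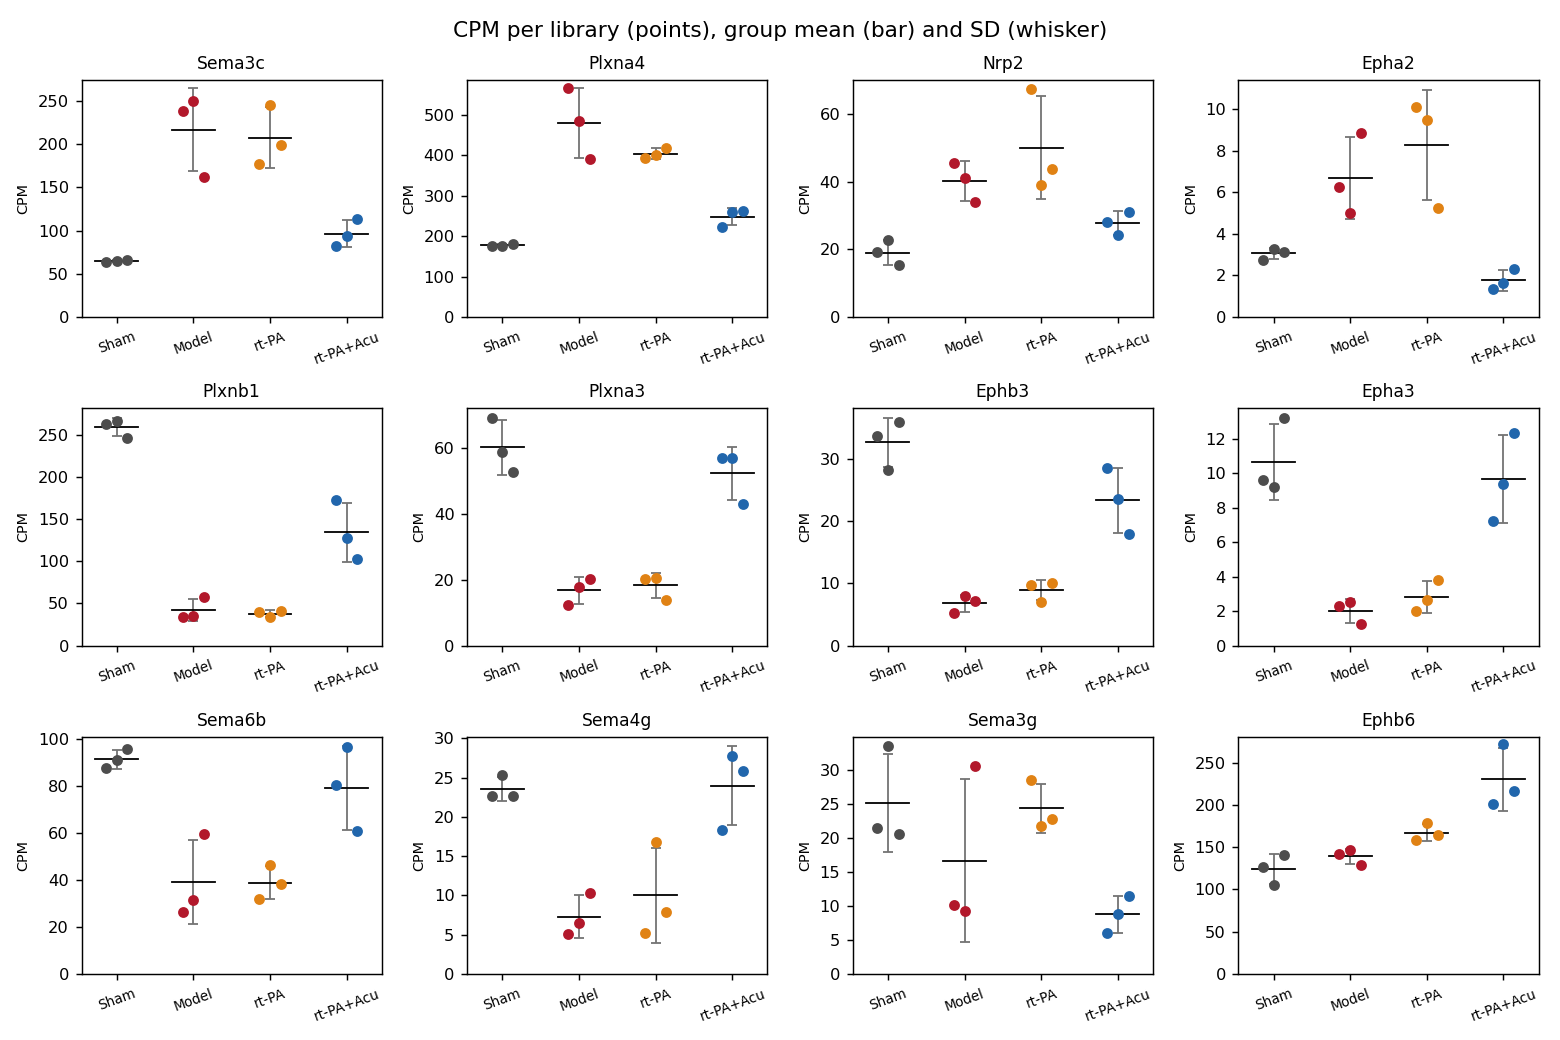
CPM of 12 guidance genes in each of the 12 libraries (points, 3 per group), with the group mean (bar) and SD (whisker). Sema3c, Plxna4, Nrp2 and Epha2 are high in Model and rt-PA, the genes from Plxnb1 to Sema4g are low there, Sema3g is low in rt-PA+Acu, and Ephb6 is highest in rt-PA+Acu.

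Ratios of counts within a library do not depend on how libraries are scaled, and 5 pairs of related genes were formed after their values were seen. Each pair sets a gene with a positive log2 fold change in Model against Sham over one with a negative value. In rt-PA+Acu against rt-PA these signs are reversed in every pair. Much of the separation of the groups in both comparisons is therefore fixed by the choice. The ratio of Plxna4 to Plxnb1 counts was 0.665, 0.656 and 0.731 (Sham), 16.5, 13.6 and 6.74 (Model), 9.95, 11.9 and 10.3 (rt-PA), and 1.29, 2.02 and 2.54 (rt-PA+Acu). It was below 1 in Sham alone, and the 4 groups kept apart except that Model and rt-PA overlapped. The ratio of Plxna4 to Plxna3 counts was 2.53, 2.97 and 3.42 (Sham), 45.6, 27.1 and 19.4 (Model), 19.4, 19.4 and 29.9 (rt-PA), and 3.92, 4.52 and 6.08 (rt-PA+Acu). This ratio shares Plxna4 with the one before, so it is not a separate result. Model and rt-PA overlapped and were separate from rt-PA+Acu, which was separate from Sham. The ratio of Nrp2 to Nrp1 counts was 0.503, 0.515 and 0.308 (Sham), 1.21, 1.03 and 1.20 (Model), 1.51, 0.935 and 1.46 (rt-PA), and 0.660, 0.545 and 0.782 (rt-PA+Acu), lowest in Sham and with Model inside the rt-PA range.

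The other pairs were Sema3c to Sema3a and Efnb1 to Efnb3. The ratio of Sema3c to Sema3a counts was 0.950, 1.38 and 1.13 (Sham), 8.32, 5.56 and 5.27 (Model), 6.44, 7.00 and 8.10 (rt-PA), and 1.79, 1.98 and 5.19 (rt-PA+Acu), where rt-PA+Acu replicate 3 lay next to the lowest Model value. The ratio of Efnb1 to Efnb3 counts was 0.211, 0.255 and 0.321 (Sham), 0.963, 1.08 and 1.11 (Model), 3.10, 0.586 and 1.74 (rt-PA), and 0.569, 0.365 and 0.396 (rt-PA+Acu), where rt-PA spread on both sides of Model and nearly met rt-PA+Acu.

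**Figure D3:**
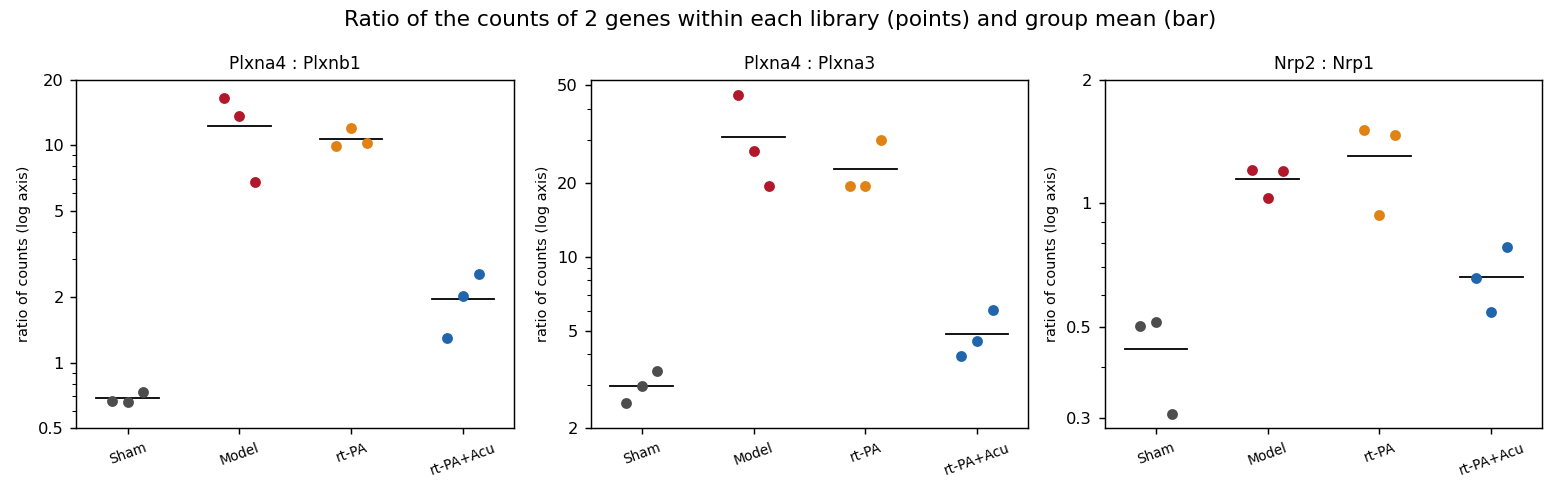
For 3 of the 5 pairs, ratio of the counts of Plxna4 to Plxnb1, Plxna4 to Plxna3 and Nrp2 to Nrp1 in each library (points, 3 per group) on log axes, with the group mean (bar). The mean ratio of Plxna4 to Plxnb1 is 0.684 for Sham, 12.3 for Model, 10.7 for rt-PA and 1.95 for rt-PA+Acu.

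Because several of these genes moved together, their promoter sequences were looked up in RefSeq (build GRCr8), 300 bases from 250 before to 50 after the annotated start. Entries were at hand for 43 of the 53 genes and for 15 of the 18 DEGs of Model against Sham. Those without one are Efnb3, Epha4, Plxna1, Plxna4, Sema3a, Sema3b, Sema3f, Sema4d, Sema4g and Sema5a. To compare base composition, the promoters of the 2 largest rises and the 2 largest falls with an entry are given 5′ to 3′ with CG pairs in capitals. Sema3c lies on the minus strand (chr4:18699578-18699877), Epha2 on the plus strand (chr5:158888379-158888678), Plxnb1 on the plus strand (chr8:118622911-118623210) and Epha3 on the minus strand (chr11:14920376-14920675).
Sema3c: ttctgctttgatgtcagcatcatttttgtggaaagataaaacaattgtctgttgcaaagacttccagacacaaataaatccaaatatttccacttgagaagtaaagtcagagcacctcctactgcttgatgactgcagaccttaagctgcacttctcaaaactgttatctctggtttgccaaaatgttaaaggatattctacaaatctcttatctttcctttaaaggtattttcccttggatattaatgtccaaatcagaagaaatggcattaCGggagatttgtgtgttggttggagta
Epha2: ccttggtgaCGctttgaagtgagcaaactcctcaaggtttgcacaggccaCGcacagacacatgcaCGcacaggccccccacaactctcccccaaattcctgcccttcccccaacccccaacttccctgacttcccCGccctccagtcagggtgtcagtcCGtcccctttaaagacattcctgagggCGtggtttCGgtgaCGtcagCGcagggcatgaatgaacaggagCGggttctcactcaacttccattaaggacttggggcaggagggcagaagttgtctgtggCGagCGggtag
Plxnb1: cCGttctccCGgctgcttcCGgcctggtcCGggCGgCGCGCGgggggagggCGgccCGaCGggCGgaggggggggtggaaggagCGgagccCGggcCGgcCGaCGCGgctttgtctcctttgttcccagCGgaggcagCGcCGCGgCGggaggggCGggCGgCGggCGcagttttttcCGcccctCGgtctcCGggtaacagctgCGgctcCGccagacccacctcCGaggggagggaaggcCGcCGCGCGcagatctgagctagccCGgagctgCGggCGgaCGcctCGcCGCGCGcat
Epha3: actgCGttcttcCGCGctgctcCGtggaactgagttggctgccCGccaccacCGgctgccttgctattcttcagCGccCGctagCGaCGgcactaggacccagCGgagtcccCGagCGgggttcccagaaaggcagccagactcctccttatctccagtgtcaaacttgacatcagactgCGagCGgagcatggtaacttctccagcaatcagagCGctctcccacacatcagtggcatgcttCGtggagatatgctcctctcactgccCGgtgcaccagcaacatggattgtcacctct
The Sema3c window is 36.3% G or C with 1 CG pair, and that of Plxnb1 is 77.3% with 45. Epha2 (58.3%, 12 pairs) and Epha3 (59.3%, 18 pairs) lie between them. The median over all 33469 promoters was 51.7% and 7 pairs, and over the guidance genes 61.0% and 18 pairs. Among the DEGs of Model against Sham, the 3 higher genes with an entry had a median of 53.0% and the 12 lower genes 66.5%, with ranges of 36.3% to 58.3% and 36.3% to 83.0% that overlap. On either strand, the GC box GGGCGG was present at 33.1% of all promoters and at 23 of the 43, where Plxnb1 had 7 matches, Epha2 had 1, and Sema3c and Epha3 had 0. The cyclic AMP response element TGACGTCA was present at 1.83% of all promoters and 1 of the 43, that of Epha2, beginning 52 bases before its start. The AP-1 motif TGANTCA was present at 7.33% of all promoters and at 1 of the 43, Epha10. These matches describe the letters in the window and not binding.

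Of the ephrins, the ligands of Eph receptors, Efnb2 and Efnb3 of the B class fell, and no A-class gene passed the fold threshold. Efnb3 held 74.7, 62.1 and 43.2 CPM (Sham), 26.6, 21.6 and 22.3 (Model), 11.4, 26.0 and 15.4 (rt-PA), and 22.1, 31.3 and 44.4 (rt-PA+Acu). Both Model and rt-PA were below the Sham range, and rt-PA+Acu reached from the rt-PA values into the Sham range. Efnb3 was 2.53-fold lower in Model than in Sham (log2 fold change -1.34 ± 0.20 (SE), adjusted p = 0.000737) and 1.86-fold higher in rt-PA+Acu than under rt-PA alone at an adjusted p of 0.0845. Its rt-PA+Acu against Sham change had an adjusted p of 0.108, and without rt-PA+Acu replicate 3 it passed both thresholds (-1.18, adjusted p = 0.0353).

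Efnb2, the ligand of Ephb4 and a marker of arteries, held 14.5, 14.4 and 15.4 CPM (Sham), 7.40, 4.48 and 9.75 (Model), 8.53, 11.0 and 8.03 (rt-PA), and 18.0, 19.4 and 17.4 (rt-PA+Acu). Model and rt-PA were below Sham, and rt-PA+Acu was above it in all libraries. Efnb2 fell in Model against Sham (log2 fold change -1.02 ± 0.26 (SE), adjusted p = 0.0108), but under the fold threshold without Model replicate 2 (-0.77) and with library size alone (-0.95). In rt-PA+Acu against rt-PA it was 1.98-fold higher (adjusted p = 0.0063), just under the fold threshold. It became a DEG there without rt-PA replicate 2 or rt-PA+Acu replicate 1 or 3. Efnb1 was 1.63-fold higher in Model than in Sham (adjusted p = 0.00214) and Efna3 1.54-fold higher (adjusted p = 0.00744), both short of the fold threshold. Efna1, Efna2 and Efna5 had adjusted p of 0.944, 0.396 and 0.596 there.

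Of 13 tested Eph receptors, 4 were lower and 1 was higher in Model against Sham, beside 12% and 9.43% of all genes tested. Ephb3, a receptor of ephrin-B ligands, held 33.6, 28.2 and 35.9 CPM (Sham), 5.27, 7.95 and 7.19 (Model), 9.77, 7.03 and 10.02 (rt-PA), and 28.5, 23.4 and 18.0 (rt-PA+Acu). Sham and rt-PA+Acu overlapped at their edges, and both lay above Model and rt-PA. Ephb3 was 4.76-fold lower in Model than in Sham (log2 fold change -2.25 ± 0.19 (SE), adjusted p = 5.12e-05) and 2.60-fold higher in rt-PA+Acu than under rt-PA alone (log2 fold change 1.38 ± 0.23 (SE), adjusted p = 0.00501). Epha3 held 9.62, 9.19 and 13.2 CPM (Sham), 2.29, 2.54 and 1.24 (Model), 2.01, 2.65 and 3.83 (rt-PA), and 7.24, 9.41 and 12.3 (rt-PA+Acu). Its rt-PA+Acu libraries overlapped Sham and were above all Model and rt-PA libraries. Epha3 was 5.21-fold lower in Model than in Sham (log2 fold change -2.38 ± 0.31 (SE), adjusted p = 0.000386) and 3.41-fold higher in rt-PA+Acu than under rt-PA alone (log2 fold change 1.77 ± 0.32 (SE), adjusted p = 0.00679).

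Epha8, a receptor counted at low level here, held 3.72, 7.88 and 6.38 CPM (Sham), 1.37, 2.45 and 3.22 (Model), 1.18, 0.215 and 1.55 (rt-PA), and 4.97, 3.57 and 3.07 (rt-PA+Acu). All Sham libraries lay above all Model and rt-PA libraries, and rt-PA+Acu, which overlapped Model and Sham, lay above rt-PA. Its log2 fold change was -1.34 ± 0.39 in Model against Sham (SE; adjusted p = 0.0197) and 1.97 ± 0.58 in rt-PA+Acu against rt-PA (SE; adjusted p = 0.0335). The Model against Sham call was lost without Sham replicate 2 or 3 or Model replicate 2, at adjusted p of 0.053 to 0.0831. The rt-PA+Acu against rt-PA call was lost without rt-PA replicate 1 or rt-PA+Acu replicate 1 or 2, at adjusted p of 0.0804 to 0.0986. Ephb1 held 52.5, 57.0 and 46.9 CPM (Sham), 20.3, 28.4 and 22.9 (Model), 19.5, 26.9 and 19.2 (rt-PA), and 48.8, 33.0 and 27.9 (rt-PA+Acu). Every stroke library except rt-PA+Acu replicate 1 lay below the Sham range. Ephb1 fell in Model against Sham (log2 fold change -1.12 ± 0.14 (SE), adjusted p = 0.000381) and was 1.67-fold higher in rt-PA+Acu than under rt-PA alone (adjusted p = 0.0445), under the fold threshold. Epha4, the receptor that binds both ephrin classes, was 1.76-fold lower in Model than in Sham (adjusted p = 0.001), also under the fold threshold.

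Epha2 was the Eph receptor that rose. It held 2.75, 3.29 and 3.14 CPM (Sham), 6.26, 4.99 and 8.84 (Model), 10.1, 9.47 and 5.23 (rt-PA), and 1.35, 1.66 and 2.32 (rt-PA+Acu). Model and rt-PA lay above Sham, and rt-PA+Acu lay below Sham, with no overlap in either direction. Epha2 was 2.20-fold higher in Model than in Sham (log2 fold change 1.14 ± 0.28 (SE), adjusted p = 0.00872) and 4.62-fold lower in rt-PA+Acu than under rt-PA alone (log2 fold change -2.21 ± 0.35 (SE), adjusted p = 0.00459), which was the largest change of any guidance gene in that comparison. The rt-PA+Acu against Sham difference had an adjusted p of 0.193.

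Epha6 and Ephb4 were DEGs in a single comparison, rt-PA+Acu against rt-PA. Epha6 held 23.0, 33.7 and 27.0 CPM (Sham), 16.6, 23.1 and 22.6 (Model), 6.79, 17.2 and 21.4 (rt-PA), and 30.2, 52.6 and 28.4 (rt-PA+Acu). Its rt-PA+Acu libraries were above all rt-PA libraries and mixed with Sham, and the call (1.29, adjusted p = 0.0465) was lost without rt-PA replicate 1 or 2 or rt-PA+Acu replicate 1 or 2, at adjusted p of 0.0702 to 0.157, and with library size alone (adjusted p = 0.0504). Ephb4, the venous receptor of Efnb2, held 10.2, 10.8 and 9.52 CPM (Sham), 8.85, 7.78 and 14.3 (Model), 18.8, 10.6 and 12.3 (rt-PA), and 5.47, 7.15 and 8.08 (rt-PA+Acu). Its rt-PA+Acu libraries were below all rt-PA and all Sham libraries, with a log2 fold change of -1.01 ± 0.27 against rt-PA (SE; adjusted p = 0.0243). That value sat at the fold threshold and no longer passed it with DESeq2 (-0.999), RLE factors (-0.997) or a filter of at least 1 count (-0.997). Without rt-PA replicate 1 or rt-PA+Acu replicate 1 or 2, its adjusted p was 0.0719 to 0.0784.

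Ephb6, an Eph receptor that lacks kinase activity, held 126, 106 and 141 CPM (Sham), 142, 146 and 129 (Model), 159, 179 and 164 (rt-PA), and 201, 272 and 217 (rt-PA+Acu). The rt-PA+Acu libraries were the highest, followed by rt-PA. Ephb6 was 1.85-fold higher in rt-PA+Acu than in Sham (adjusted p = 0.0199) and 1.38-fold higher than in rt-PA (adjusted p = 0.0348), both under the fold threshold. Summed over the 5 EphB genes, the level was 233, 212 and 246 CPM (Sham), 186, 203 and 189 (Model), 216, 234 and 220.3 (rt-PA), and 296, 349 and 286 (rt-PA+Acu). All rt-PA+Acu sums were above all sums of the other groups, which rests on Ephb6. Without it the other 4 genes summed to 107, 106 and 106 CPM (Sham), 43.4, 57.1 and 59.6 (Model), 57.6, 55.1 and 56.1 (rt-PA), and 95.4, 76.6 and 69.0 (rt-PA+Acu), and rt-PA+Acu lay below Sham and above Model and rt-PA. The 9 EphA genes had mean sums of 582 ± 56.0 CPM for Sham, 396 ± 11.0 for Model, 385 ± 55.1 for rt-PA and 662 ± 176 for rt-PA+Acu (SD, n = 3). The full separation of Model and rt-PA from the other groups there rests on Epha4. Without it the other 8 genes summed to 233, 289 and 289 CPM (Sham), 193, 236 and 229.6 (Model), 113, 242 and 197 (rt-PA), and 239, 410.4 and 277 (rt-PA+Acu). Model then overlapped Sham, and rt-PA overlapped rt-PA+Acu only through rt-PA replicate 2.

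The remaining 29 guidance genes were DEGs in no comparison. Their log2 fold changes ran from -0.83 (Sema3f) to 0.70 (Efnb1) in Model against Sham, from -0.39 (Efna2) to 0.58 (Sema3b) in rt-PA against Model, from -0.98 (Sema5b) to 0.81 (Epha4) in rt-PA+Acu against rt-PA, and from -0.76 (Sema3f) to 0.89 (Ephb6) in rt-PA+Acu against Sham.

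The effect of rt-PA given at 6 h on its own was tested in rt-PA against Model, where no guidance gene was a DEG with edgeR, beside 0% of all 12941 genes tested. DESeq2 also gave 0 guidance DEGs, though 82 among all genes, and 3 of 51 guidance genes had an unadjusted p under 0.05 with edgeR, beside 9.92% of all genes. The groups did not overlap at 2 of 51 (3.92%), beside 16% of all genes. Without Model replicate 3 there were 0 guidance DEGs and 8 of 52 tested guidance genes at an unadjusted p under 0.05, beside 13.1% of all genes. The genes with the smallest unadjusted p were Ephb6 (0.27), Plxnb2 (0.33), Plxnd1 (0.51) and Efna5 (0.44, all log2 fold changes), each with an adjusted p of 0.422 to 0.51. Plxnb2, a receptor of Sema4c, held 106, 95.5 and 80.4 CPM (Sham), 83.1, 87.6 and 87.6 (Model), 126, 98.6 and 99.1 (rt-PA), and 88.4, 91.3 and 103 (rt-PA+Acu). Efna5, a ligand of EphA receptors, held 27.6, 19.1 and 30.5 CPM (Sham), 31.8, 29.8 and 22.6 (Model), 44.9, 29.2 and 39.7 (rt-PA), and 34.3, 21.0 and 21.8 (rt-PA+Acu). Plxnb2 and Ephb6 were the genes whose Model and rt-PA libraries did not overlap, both with rt-PA above Model, and Efna5 was highest in rt-PA replicate 1.

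In rt-PA against Sham, which shares libraries with the comparisons above, 12 of 51 guidance genes (23.5%) were lower, beside 11.6% of all 13023 genes tested, and 4 (7.84%) were higher, beside 11%. At any fold, 27 (52.9%) had an adjusted p under 0.05, beside 54.7%. The lower genes were Plxnb1 (-2.79), Epha8 (-2.62), Epha3 (-1.92), Ephb3 (-1.88), Efnb3 (-1.79), Plxna3 (-1.74), Sema4b (-1.40), Ephb1 (-1.27), Plxnc1 (-1.25), Sema6b (-1.25), Sema4g (-1.25) and Sema3a, and the higher genes were Sema3c (1.66), Epha2 (1.42), Nrp2 (1.38) and Plxna4 (1.17), all as log2 fold changes. Sema4g was lost as a DEG without Sham replicate 2 or 3 or rt-PA replicate 3 (adjusted p = 0.052 to 0.0722), and without rt-PA replicate 1 its fold was under the threshold (-0.93).

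What still differed from Sham after both treatments was tested in rt-PA+Acu against Sham. Here 1 of 51 guidance genes (1.96%), Sema3g, was lower, beside 1.14% of all 12775 genes tested, and 0 were higher, beside 0.916%. At any fold, 9 (17.6%) had an adjusted p under 0.05, beside 5.1%, and 16 (31.4%) had groups that did not overlap, beside 30.7%. The 9 genes were Sema3g, Plxnb1, Plxnd1, Sema4b, Sema3f and Sema5b, which were lower, and Ephb6, Sema3c and Plxna4, which were higher. The count of 1 DEG was 0 when any 1 Sham library or rt-PA+Acu replicate 2 was left out, 3 without rt-PA+Acu replicate 1 (Plxnb1 and Plxnb3 were added) and 2 without rt-PA+Acu replicate 3 (Efnb3 was added). An adjusted p above 0.05 does not show that a gene was at its Sham level.

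Model against Sham and rt-PA+Acu against rt-PA share no library, so their values can be set side by side. Of the 18 guidance DEGs of the former and the 12 of the latter, 9 were in both lists, 50% and 75% of them, and all 9 had opposite signs. Over all genes tested in both, 1449 were in both lists, 53.4% and 75.3% of them, and 1447 had opposite signs. Over the 51 guidance genes, 43 (84.3%) had opposite signs, beside 81.6% of all 12753 genes. The Pearson correlation of the log2 fold changes was -0.78 across the 51 guidance genes and -0.83 across all genes, which are not independent replicates. The guidance genes were thus close to the table as a whole in this respect. Among the DEGs of either comparison, Sema3g and Plxnd1 did not follow it. Sema3g was lower in rt-PA+Acu than under rt-PA alone. It overlapped between Model and Sham through Model replicate 3 alone, without which it was a DEG, lower in Model. Plxnd1 fell in Model with a log2 fold change of -0.07 in rt-PA+Acu against rt-PA.

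**Figure D4:**
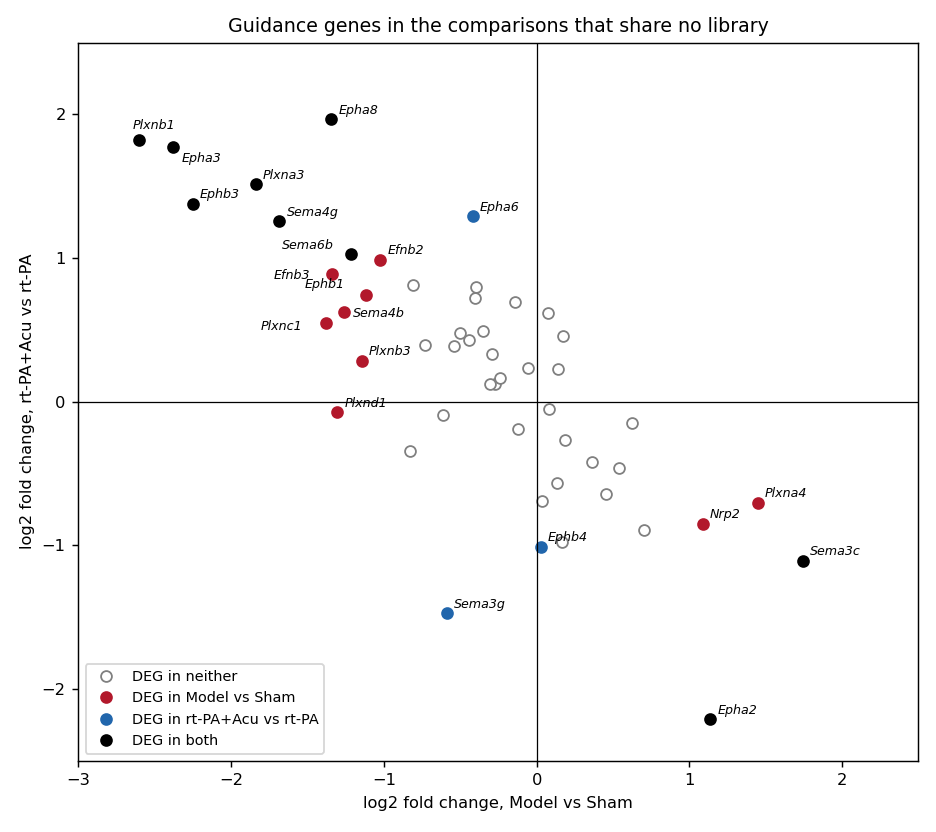
Log2 fold change of each of the 51 guidance genes in Model against Sham (horizontal axis) and in rt-PA+Acu against rt-PA (vertical axis), coloured by the comparison in which it was a DEG. The 9 genes that were DEGs in both lie in the upper left or lower right, and Sema3g is the DEG farthest into the lower left.

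Genes that act with these ligands and receptors were counted from 3 lists. Beside these counts, 9.43% of all genes tested were higher and 12% lower in Model against Sham, and 7.17% higher and 8.16% lower in rt-PA+Acu against rt-PA. Of 29 tested co-receptors and effectors of semaphorins, 1 rose in Model against Sham and none fell, with a median log2 fold change of -0.077. The gene that rose was Dpysl3 (log2 fold change 1.74 ± 0.19 (SE), adjusted p = 0.000194), a member of the collapsin response mediator protein family, and it fell by 1.30 in rt-PA+Acu against rt-PA (adjusted p = 0.00149). Of 30 tested in rt-PA+Acu against rt-PA, 3 fell and none rose.

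Of 22 effectors of Eph receptors and ephrins, 5 rose and 4 fell in Model against Sham, with a median of 0.23. The largest rises were Grip1 (2.21), a scaffold that binds ephrin-B tails, Arhgef15 (1.89), a guanine nucleotide exchange factor tied to EphB2, and Vav3 (1.12), an exchange factor recruited by Eph receptors. The largest falls were Chn2 (-2.04) and Chn1 (-1.70), the chimaerins that inactivate Rac, of which Chn1 acts under Epha4, and Sipa1l1 (-1.49), a Rap inactivator of dendritic spines. Their adjusted p were 5.93e-05, 0.00273, 0.00563, 4.33e-05, 3.79e-05 and 9.61e-05. Chn1 held 585, 655 and 746 CPM (Sham), 180.1, 193 and 235 (Model), 129.8, 193 and 222 (rt-PA), and 689, 695 and 309 (rt-PA+Acu). All Model and rt-PA libraries were below all others, and rt-PA+Acu replicate 3 was the lowest of its group. With acupuncture before rt-PA, 2 of the 22 rose against rt-PA, Chn1 (1.63) and Chn2 (1.501), and 3 fell, among them Arhgef15 (-2.27) and Grip1 (-1.38).

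Of 26 genes of the netrin, Slit and RGM guidance systems, 10 fell and 2 rose in Model against Sham, with a median of -0.83, and 8 rose and 1 fell in rt-PA+Acu against rt-PA, with a median of 0.54. The largest falls were Ntng1 (-2.32), the membrane-anchored netrin-G1, Robo3 (-2.10), a member of the Robo receptor family, and Unc5d (-1.74), a netrin receptor family member. The rises were Srgap1 (1.64), a GTPase-activating protein under Robo receptors, and Draxin (1.37), which binds the netrin receptor Dcc. Their adjusted p were 0.000358, 0.00118, 0.000426, 0.000129 and 0.0213. Robo3 held 22.9, 21.9 and 31.4 CPM (Sham), 3.51, 4.73 and 9.42 (Model), 3.53, 4.09 and 4.86 (rt-PA), and 22.9, 19.6 and 4.79 (rt-PA+Acu). Model and rt-PA were below Sham, and rt-PA+Acu replicate 3 lay with them while its 2 fellow libraries lay with Sham or just under it. In rt-PA+Acu against Sham none of the semaphorin or Eph effectors was a DEG, and 2 of the 26 netrin, Slit and RGM genes were, both lower, beside 1.14% of all genes. Robo4 was not analysed here.

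Marker genes of the cells in cortex moved between the groups too, and their part in the results above was not tested. The shares of all genes beside their counts are those given for the 3 lists above. The 8 markers of cortical excitatory neurons, of which Slc17a7 had the most counts, summed to 2077, 1873 and 2129 CPM (Sham), 928, 955 and 1122 (Model), 729, 961 and 942 (rt-PA), and 2071, 2591 and 1371 (rt-PA+Acu). All Model and rt-PA sums were below all others, and rt-PA+Acu replicate 3 was the lowest of its group. Of these markers 4 of 8 fell in Model against Sham and 5 of 8 rose in rt-PA+Acu against rt-PA. As with these sums, all Model and rt-PA libraries lay below all Sham and rt-PA+Acu libraries for 10 of 51 guidance genes (15.5% of all genes), Plxnb1, Plxna3, Plxnc1, Ephb3, Epha3, Epha4, Efnb2, Sema4b, Sema4g and Sema6b. They lay above for 5 of 51 (16.1% of all genes), Plxna4, Sema3c, Sema6c, Nrp2 and Epha2. The 6 inhibitory neuron markers, which summed to 621, 634 and 579 CPM (Sham), 981, 921 and 749 (Model), 806, 877 and 955 (rt-PA), and 583, 728 and 921 (rt-PA+Acu), had 0 DEGs in Model against Sham and 0 in rt-PA+Acu against rt-PA, with Gad1 the most abundant.

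Oligodendrocyte markers differed widely inside groups. The 7 markers, led by Mbp, summed to 12314, 15477 and 18378 CPM (Sham), 1761, 4008 and 8888 (Model), 2798, 11999 and 3570.2 (rt-PA), and 21732, 9017 and 3366 (rt-PA+Acu). Model replicate 3, rt-PA replicate 2 and rt-PA+Acu replicate 1 were the highest of their groups, by severalfold over the lowest. Of 51 guidance genes, Plxnb3, Sema4c, Sema4d, Sema5b and Sema7a had the same highest and lowest library as this sum in each of the 3 stroke groups, which was looked for after the values were seen. The share of all genes with this order was not counted, so the match is not read as a result. The sum of the striatal neuron markers has the same highest and lowest libraries, so the match does not single out oligodendrocytes. Sema4d, the ligand of Plxnb1, held 77.3, 75.7 and 78.7 CPM (Sham), 45.3, 52.5 and 64.6 (Model), 44.4, 87.5 and 45.9 (rt-PA), and 111, 69.2 and 67.7 (rt-PA+Acu). Its highest stroke values were in rt-PA replicate 2 and rt-PA+Acu replicate 1, both above the Sham range. The 6 precursor markers, led by Pdgfra, summed to 524, 655 and 602 CPM (Sham), 164, 214 and 233 (Model), 262, 284 and 264 (rt-PA), and 584, 437 and 257 (rt-PA+Acu), with the same highest and lowest libraries, and 3 of 6 fell in Model against Sham, as did 5 of 7 oligodendrocyte markers. No oligodendrocyte marker was a DEG in rt-PA+Acu against rt-PA, and 1 precursor marker rose.

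Of the guidance genes named above for vessels, Sema3g, Ephb4 and Plxnd1 were below all Sham libraries in rt-PA+Acu, and Efnb2 was above them. Endothelial markers differed between the groups as well. The 7 markers, of which Kdr had the most counts, summed to 187, 216 and 173 CPM (Sham), 228, 268 and 437 (Model), 436, 302 and 326 (rt-PA), and 106, 109 and 116 (rt-PA+Acu). Each rt-PA+Acu sum was below all Sham sums, and all Model and rt-PA sums were above them, the Model part of which rests on Kdr. Without Kdr the other 6 summed to 171, 196 and 161 CPM (Sham), 133, 147 and 301 (Model), 301, 228 and 230.2 (rt-PA), and 95.5, 101 and 101 (rt-PA+Acu), where Model replicates 1 and 2 lay below Sham and rt-PA stayed above it. Of the 7, 4 fell and none rose in rt-PA+Acu against rt-PA, among them Kdr (-3.16) and Pecam1 (-1.90), and 2 of 7 fell in rt-PA+Acu against Sham. In Model against Sham 1 rose, Kdr (2.84), and 1 fell. The markers of pericytes and smooth muscle, led by Pdgfrb, summed to 259, 289.9 and 265 CPM (Sham), 146, 143 and 184 (Model), 249, 219.7 and 195 (rt-PA), and 149, 137 and 143 (rt-PA+Acu). All Model and rt-PA+Acu sums were below all rt-PA and Sham sums, but without Pdgfrb the Model and rt-PA sums overlapped. These markers had 1 of 7 lower in Model against Sham, and 1 higher and 2 lower in rt-PA+Acu against rt-PA. In rt-PA+Acu against Sham, 3 of 7 were lower.

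Markers of immune cells also differed between the groups. The 8 markers of monocytes and macrophages, led by Lyz2, summed to 59.0, 79.6 and 62.6 CPM (Sham), 212, 168 and 247 (Model), 467, 272 and 252 (rt-PA), and 39.5, 35.3 and 52.6 (rt-PA+Acu). All Model and rt-PA sums were above Sham and all rt-PA+Acu sums below it, but without Lyz2 the rt-PA+Acu and Sham sums overlapped. Of these markers, 3 of 7 tested rose in Model against Sham, and 6 of 7 fell in rt-PA+Acu against rt-PA. The neutrophil markers, led by S100a9, summed to 11.8, 7.27 and 10.4 CPM (Sham), 5.11, 10.6 and 17.2 (Model), 82.0, 34.6 and 14.9 (rt-PA), and 5.22, 5.23 and 3.74 (rt-PA+Acu), highest in rt-PA replicate 1. They had 1 of 4 tested higher in Model against Sham and 4 of 5 lower in rt-PA+Acu against rt-PA. Ms4a7, Mmp8 and Retnlg, which mark these cells, were at 0 in at least 1 group.

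Other lists bear on the tissue itself. The 7 striatal neuron markers, led by Ppp1r1b, summed to 437, 1092 and 866 CPM (Sham), 172, 201 and 269 (Model), 169, 245 and 244 (rt-PA), and 317, 305 and 243 (rt-PA+Acu). All stroke sums, with acupuncture or not, were below all Sham sums, although the samples are labelled as cerebral cortex. All 7 markers fell in Model against Sham, and 6 of 7 in rt-PA+Acu against Sham. The Model and Sham libraries did not overlap at 5 of 7, beside 63.7% of all genes. Sham replicate 1 lay inside the Model range for Drd2 (3.96 CPM) and Adora2a (7.03). Sham replicates 2 and 3 held 48.8 and 34.3 CPM of Drd2 and 75.2 and 58.0 of Adora2a. The astrocyte markers, led by Gfap, summed to 5795, 6699 and 5734 CPM (Sham), 4508, 6347 and 6005 (Model), 5015, 5055 and 5882 (rt-PA), and 6787, 6259.7 and 7819.5 (rt-PA+Acu). Without Gfap the other 6 summed to 5397, 6284 and 5371 CPM (Sham), 2025, 2267 and 2548 (Model), 1803, 1940.4 and 2460.2 (rt-PA), and 4601, 4078 and 3429 (rt-PA+Acu), with Model and rt-PA below all others. Of the 7, 5 fell and Gfap rose in Model against Sham, and 3 of 7 rose in rt-PA+Acu against rt-PA.

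Tissue around the cortex and neuronal activity were covered by 3 lists. The meningeal and fibroblast markers, led by Col3a1, summed to 39.1, 97.7 and 83.4 CPM (Sham), 27.1, 76.7 and 27.6 (Model), 309, 70.6 and 222 (rt-PA), and 131, 61.9 and 74.6 (rt-PA+Acu), highest in rt-PA replicates 1 and 3. Of these, 1 of 6 tested fell in Model against Sham, and 1 rose and 1 fell in rt-PA+Acu against rt-PA. The choroid plexus markers, led by Kl, summed to 4.36, 3.67 and 3.14 CPM (Sham), 11.6, 20.2 and 12.3 (Model), 5.13, 5.88 and 8.77 (rt-PA), and 2.53, 2.27 and 17.3 (rt-PA+Acu). Of these, Kl rose in Model against Sham and fell in rt-PA+Acu against rt-PA, and Ttr, Folr1, Clic6 and Otx2 were at 0 in at least 1 group. Without Kl the Model and Sham sums overlapped, and most of the sum in rt-PA+Acu replicate 3 was Kcne2 (15.7 CPM). The immediate early genes, led by Egr1, summed to 700.2, 591 and 497 CPM (Sham), 582, 300.0 and 640.1 (Model), 229, 286 and 214 (rt-PA), and 172, 142 and 172 (rt-PA+Acu). Of these, 2 of 7 fell in Model against Sham, 2 fell in rt-PA+Acu against rt-PA and 4 fell in rt-PA+Acu against Sham. Pvalb, Flt1 and Junb were not analysed here.

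**Figure D5:**
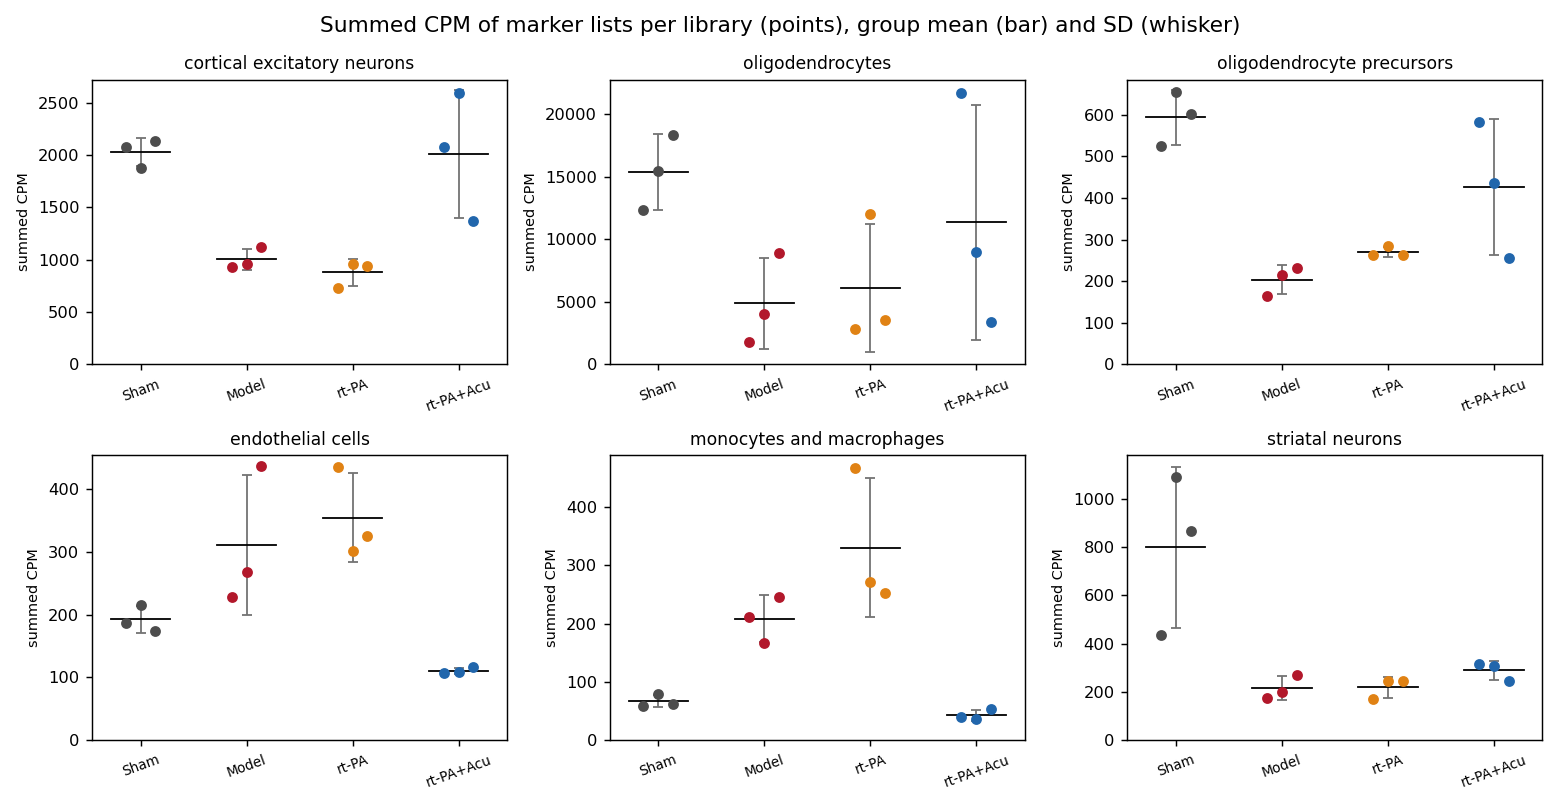
Summed CPM of 6 marker lists in each library (points, 3 per group), with the group mean (bar) and SD (whisker); each panel has its own vertical axis from 0. Excitatory neuron sums are low in Model and rt-PA, monocyte and macrophage sums are high there, endothelial sums are lowest in rt-PA+Acu (their height in Model rests on Kdr), striatal sums are low in all stroke groups, and oligodendrocyte sums spread widely inside each stroke group.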

How the data were processed

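RNA from the cerebral cortex was sequenced in pairs of reads from stranded libraries. The deposited table holds whole-number counts by gene symbol, unscaled, which the authors made by aligning reads to the rat genome with STAR and counting uniquely mapped read pairs on Ensembl genes with Salmon. The submitters' processing notes give STAR 2.7.10a, Salmon 1.9.0, featureCounts 2.0.1, whose role is not given in the sources used here, and the build mRatBN7.2. Adapters held molecular identifiers, and their use in counting is not given in the sources used here. The time at which tissue was taken for sequencing is not given either. Groups follow the sample labels.

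Tests were run with edgeR 4.0.16 under R 4.3.3, and with DESeq2 1.42.0 as an alternative. A comparison used the 6 libraries of its groups and the genes kept by filterByExpr, with TMM factors and edgeR's quasi-likelihood test, and p-values were adjusted by the Benjamini-Hochberg method over all genes tested. CPM use TMM factors over all 12 libraries, between 0.949 and 1.08. For principal components, log2 CPM were formed with 2 as the prior count. Counting error alone limits low values, as 3 counts stand for 0.208 to 0.262 CPM. Figures were made with matplotlib 3.10.9 under Python 3.11.15. Promoters came from RefSeq, matched by symbol, and their starts need not be those used for counting.

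Guidance genes and lists were chosen with earlier results of these data known. Genes were named by rule: each guidance DEG of a comparison, the 4 smallest p-values in rt-PA against Model, and from each pathway list the 3 largest rises and falls among DEGs of Model against Sham at a mean of at least 1 CPM, with Chn1, Robo3, Sema4d and other genes outside the rule chosen after their values were seen. Among guidance DEGs at a mean of at least 1 CPM, the 12 largest rises and 12 largest falls in Model against Sham, and the 5 guidance genes with the largest changes in rt-PA+Acu against Sham, have values in every library. From each marker list the gene with the most counts and those at 0 in a group are named. Microglial markers are not reported here. The alternatives were DESeq2, RLE factors, library size alone, a filter of at least 1 count, 1 fit over all 12 libraries, no fold threshold, a block by replicate number, and leaving out each library.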

Additional observations from a re-analysis of the deposited data

How the results depend on the processing

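With an adjusted p and no fold threshold, the guidance genes called were 28 in place of 18 in Model against Sham, 19 in place of 12 in rt-PA+Acu against rt-PA, 27 in place of 16 in rt-PA against Sham and 9 in place of 1 in rt-PA+Acu against Sham. The fit over all 12 libraries gave 0 in rt-PA+Acu against Sham. Leaving out each library in turn gave 16 to 19 in Model against Sham, 7 to 14 in rt-PA+Acu against rt-PA, 14 to 19 in rt-PA against Sham, 0 to 3 in rt-PA+Acu against Sham and 0 in rt-PA against Model. DESeq2, RLE factors, library size alone and the filter of at least 1 count kept these counts within 1.5 times. Library size alone moved the median log2 fold change of all genes from 0.0028 to 0.15 in rt-PA against Sham, and by under 0.1 in the other comparisons.

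Of the values of named DEGs under these alternatives, 8 of 216 were no longer past both thresholds in Model against Sham, 26 of 144 in rt-PA+Acu against rt-PA and 9 of 192 in rt-PA against Sham. In rt-PA+Acu against Sham, 5 of 60 named values lost the call, all of Sema3g, and 2 gained it. None changed direction.

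Same-numbered samples share only a number: in no comparison were all 3 correlations of their deviations over 0.1, with values from -0.121 to 0.146. With a replicate block the guidance DEGs were 18 in Model against Sham, 0 in rt-PA against Model, 11 in rt-PA+Acu against rt-PA, where Ephb4 was lost (adjusted p = 0.0617), 18 in rt-PA against Sham, where Epha6 and Plxnb3 were added, and 1 in rt-PA+Acu against Sham.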
